A study of Macaca mulatta with 24 samples.

Results

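The neutrophil-attracting CXC chemokines and their receptors were examined in the colon of rhesus macaques after total-body irradiation (TBI). The members were the ligands CXCL8 (IL8 on the array), CXCL1, CXCL2, CXCL3, CXCL5 and CXCL6 and the receptors CXCR1 and CXCR2 (IL8RB in the symbol column), and every array probe annotated to one of them was taken. All 8 genes were found among the 16177 named genes of the array, with 13 of its 43603 transcript probes. 11 of these probes passed the filter on dim signal (2 or more of the 24 arrays had to show the probe well above background), and the probes that did not pass were both probes of CXCL5.

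Each of the 24 arrays was hybridised with colon RNA of 1 sample. The unirradiated control group held 4 samples, labelled day 4 and used as the baseline of every day. The irradiated groups were 6.7 Gy and 7.4 Gy on day 4 (4 samples each), on day 7 (4 each) and on day 12 (2 each). Per the study's methods, the animals were young adult males, the dose was a single uniform cobalt-60 gamma exposure, and about 3 cm of whole colon was taken when an animal was killed. The treatment note of the labels gives 21 days where the label of each sample gives 12, and the sample labels were followed.

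These chemokines share the amino acid motif Glu-Leu-Arg ahead of their first cysteines and draw neutrophils out of the blood along a gradient bound to the vessel wall. CXCR2 binds all of these ligands, whereas CXCR1 binds mainly CXCL8 and CXCL6, and both receptors sit chiefly on neutrophils. In the gut the ligands are made by epithelium, macrophages, fibroblasts and endothelium when interleukin 1, TNF or bacterial products switch on the transcription factor NF-kB. In whole tissue, fewer cells of a type and less RNA per cell cannot be told apart, and neither can more of either.

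A level is given on the log2 scale as the signal of a probe minus the 75th percentile of its own array, so that 0 is a signal at that percentile. The percentile lay between 549.6 and 962.7 intensity units, 66.6 to 84.8% of the probes of an array were well above background, no spot was saturated, and the correlation between arrays of 1 group ran from 0.963 to 0.985. Levels are compared between samples for the same probe, never between probes. "Called" means a Benjamini-Hochberg adjusted p under 0.05 by limma over all 38220 probes tested, with at least a 2-fold change. The number of animals limits the precision. The labels do not describe the replicates further, but per the study's methods group sizes are numbers of animals and RNA was not pooled. The p-values weigh a difference against the spread between these samples.

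**Figure D1:**
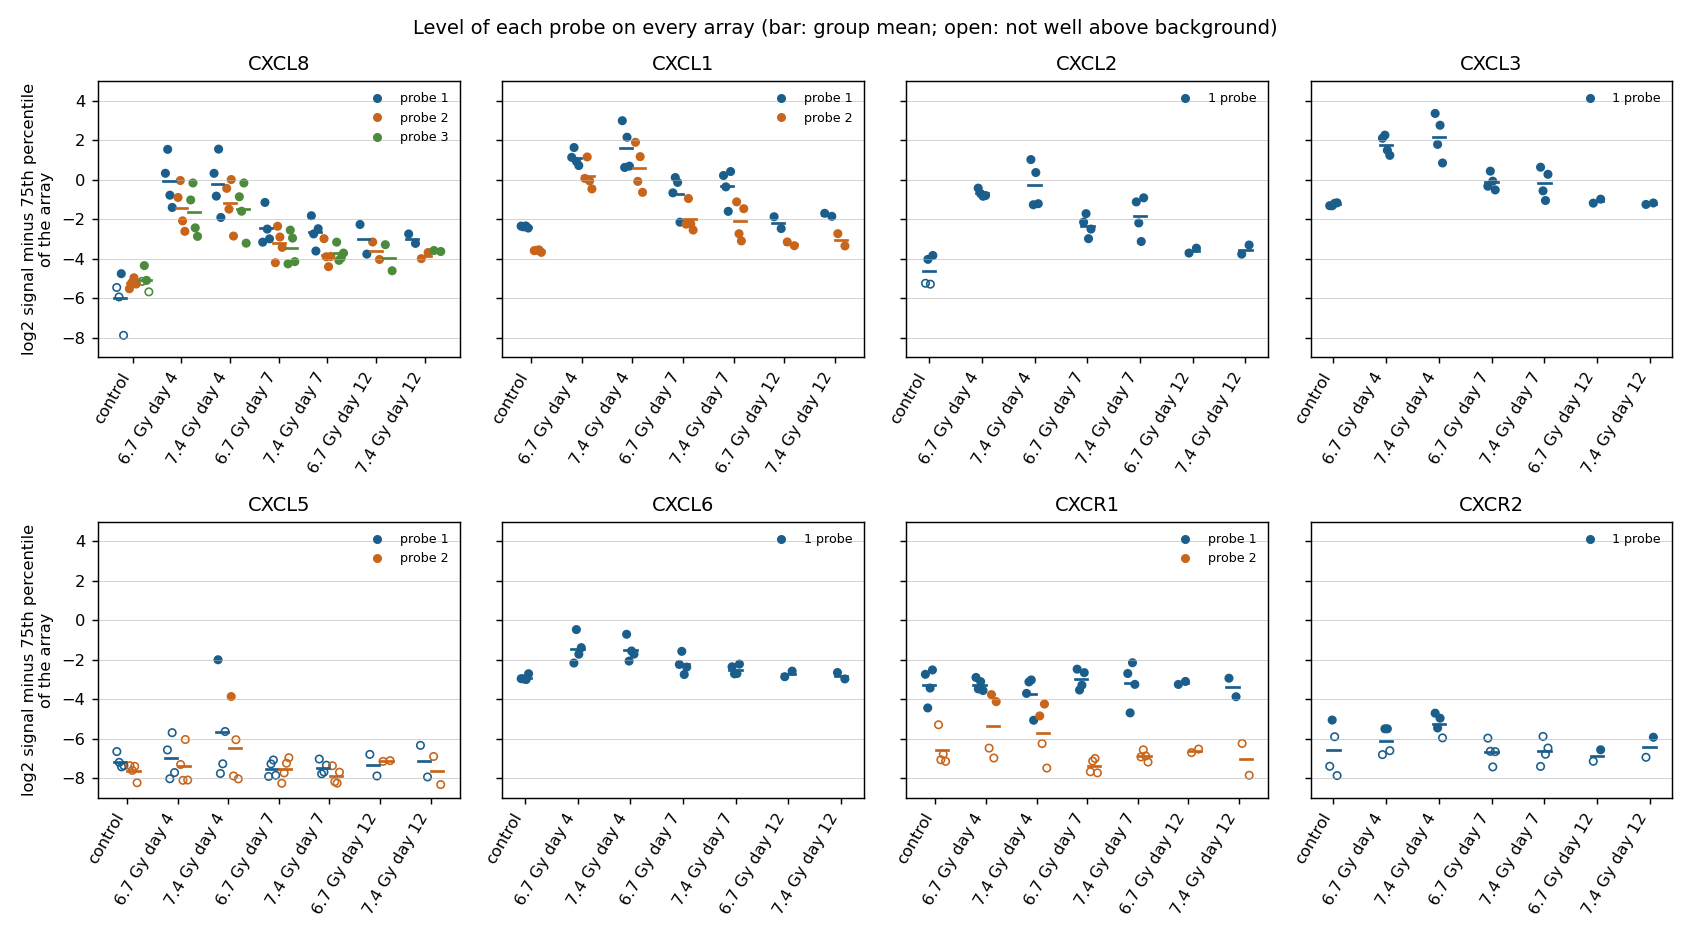
Level of every probe of the 8 genes on each of the 24 arrays, as log2 signal minus the 75th percentile of the array (y axis), by group (x axis). Points are arrays, open where the spot was not well above background, and bars are group means. All 8 day 4 arrays lie above all 4 controls for CXCL8, CXCL1, CXCL2, CXCL3 and CXCL6, and CXCL5 has 1 array above background.

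On day 4 the colon held far more RNA of 5 of the 6 ligands than the control colon, at both doses. By the brightest probe of each gene, CXCL8, CXCL1, CXCL2 and CXCL3 rose by 8.13-fold to 61.0-fold after 6.7 Gy, and by 10.9-fold to 55.5-fold after 7.4 Gy. The upper ends belong to a CXCL8 probe that was dim in the controls. The other CXCL8 probes gave 14.3-fold and 10.9-fold after 6.7 Gy, and 16.6-fold and 12.2-fold after 7.4 Gy. CXCL6 rose by 2.78-fold and 2.64-fold, and CXCL5 stayed near background on most arrays. Of the 11 probes tested, 8 were called higher and 0 lower at each dose, with all 4 irradiated arrays above all 4 controls for each of those 8. Among all probes tested, 3.61% were called after 6.7 Gy in either direction (1.83% higher) and 7.05% after 7.4 Gy (3.36% higher). The groups did not overlap, with irradiation higher, for 7.51% of all probes after 6.7 Gy and for 10.6% after 7.4 Gy.

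CXCL8, interleukin 8, is the ligand that both receptors bind most tightly. Its brightest probe (probe 1, A_01_P1688071) read -5.46, -5.94, -4.76 and -7.89 in control replicates 1 to 4, of which only replicate 3 was well above background. It read 0.33, 1.54, -0.78 and -1.41 after 6.7 Gy and 0.32, -0.83, 1.55 and -1.91 after 7.4 Gy on day 4. Every day 4 array stood above every control, with replicate 2 of 6.7 Gy and replicate 3 of 7.4 Gy the highest and replicate 4 the lowest of either dose. The log2 change was 5.93 ± 0.76 (SE) after 6.7 Gy, a 61.0-fold rise with a 95% interval of 20.2 to 184 (limma, adjusted p = 0.000264), and 5.80 ± 0.76 after 7.4 Gy, 55.5-fold with an interval of 18.4 to 167 (adjusted p = 6.54e-05). For this probe 3 of 4 control spots were not well above background. The size changed with the background correction, and with normexp correction it was 3.23 and 3.13 on the log2 scale.

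The other CXCL8 probes gave the same direction and a smaller size. Probe 2 (A_01_P1671996) was well above background on all 24 arrays and lay between -5.53 and -4.97 in the controls, between -2.62 and -0.04 after 6.7 Gy and between -2.86 and 0.01 after 7.4 Gy. No day 4 array reached down to the controls, and the rise was 14.3-fold after 6.7 Gy and 16.6-fold after 7.4 Gy (limma, adjusted p = 0.000682 and 0.000122). Probe 3 (A_01_P1688076) rose by 10.9-fold and 12.2-fold (limma, adjusted p = 0.00247 and 0.000541), with 2 of its 4 control spots above background. The size of these rises also varied with the processing. Over the alternatives described at the end, the lowest log2 changes of probe 2 were 1.89 and 2.09, from 3.84 and 4.06. Those of probe 3 were 1.55 and 1.70, from 3.45 and 3.61. The probes ranked the samples alike: over the 24 arrays, which share the same samples and labelling, the correlation was 0.948 between probes 1 and 2, 0.942 between probes 1 and 3 and 0.977 between probes 2 and 3.

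**Figure D2:**
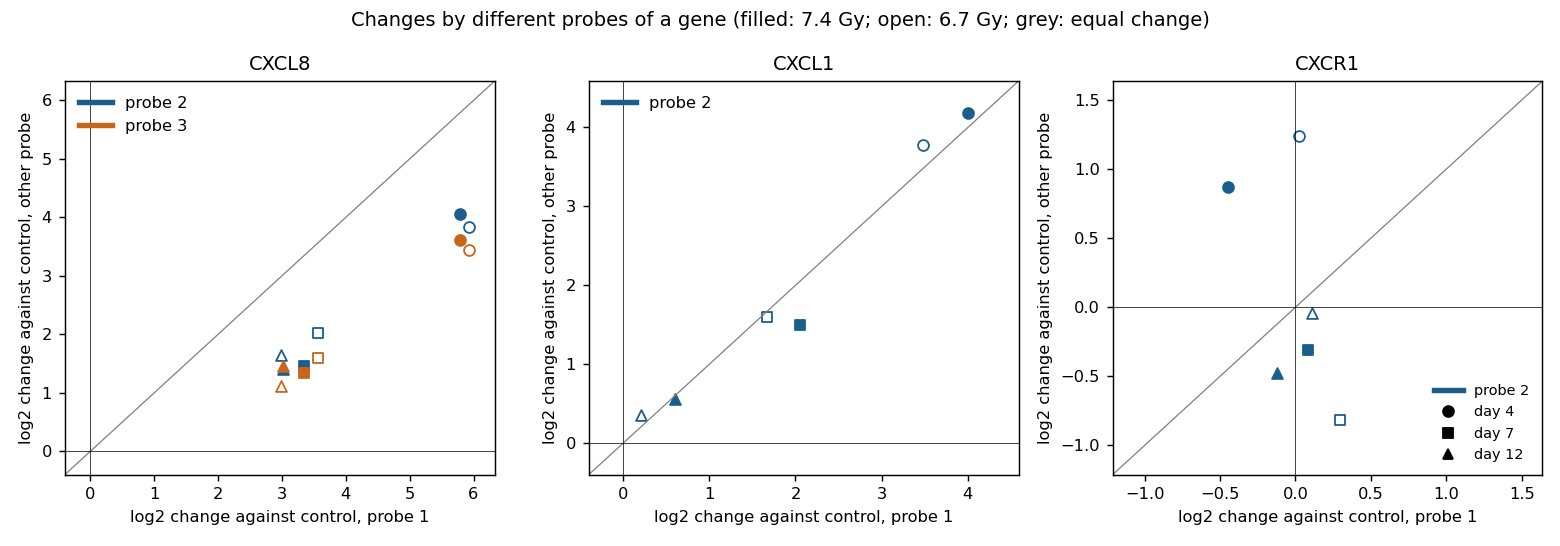
log2 change against control measured by the first probe of a gene (x axis) and by its other probes (y axis), for the 6 dose-by-day groups. Circles, squares and triangles are days 4, 7 and 12, filled for 7.4 Gy, and the grey line marks equal change. CXCL8 probes 2 and 3 lie under the line (3.84 and 3.45 against 5.93 on day 4 after 6.7 Gy), the CXCL1 probes lie close to it on day 4, and the CXCR1 probes do not follow each other.

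CXCL1, CXCL2 and CXCL3, the GRO chemokines, act through CXCR2. CXCL1 was measured by a pair of probes above background on every array, and probe 1 (A_01_P1774586) had a narrow control range, -2.35, -2.39, -2.34 and -2.45. On day 4 it read 1.13, 1.63, 0.92 and 0.72 after 6.7 Gy and 2.99, 0.62, 2.15 and 0.69 after 7.4 Gy. The lowest irradiated array was 8.02-fold above the control mean and the highest, replicate 1 of 7.4 Gy, 41.4-fold. The change was 11.2-fold after 6.7 Gy (interval 5.29 to 23.7; limma, adjusted p = 0.000691) and 16.0-fold after 7.4 Gy (7.55 to 33.7; adjusted p = 5.81e-05). Probe 2 (A_01_P1670286) rose by 13.7-fold and 18.2-fold (adjusted p = 0.000359 and 3.66e-05), and its correlation with probe 1 over the 24 arrays was 0.965.

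For CXCL2 (A_01_P1672376) the controls read -5.25, -4.04, -5.29 and -3.84, replicates 1 and 3 of them not well above background. After 6.7 Gy the day 4 arrays read -0.43, -0.70, -0.84 and -0.80, and after 7.4 Gy 1.02, -1.27, 0.36 and -1.22. The 6.7 Gy samples lay close together (SD 0.19), and replicates 1 and 3 of 7.4 Gy stood above all of them while replicates 2 and 4 stood below. CXCL2 rose by 15.1-fold (interval 7.18 to 31.6, limma, adjusted p = 0.000301) and by 20.1-fold (9.58 to 42.2, adjusted p = 3.01e-05). Over the alternatives described at the end, its lowest log2 changes were 2.46 and 2.80, from 3.91 and 4.33.

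CXCL3 (A_01_P1670381) was above background on all 24 arrays, at -1.32, -1.32, -1.19 and -1.17 in the controls. It reached 2.10, 2.26, 1.49 and 1.23 after 6.7 Gy and 3.36, 1.79, 2.76 and 0.85 after 7.4 Gy on day 4. The spread among the 7.4 Gy samples (SD 1.1) was wider than among those given 6.7 Gy (SD 0.49) or the controls (SD 0.08). CXCL3 rose by 8.13-fold (interval 4.42 to 15.0; limma, adjusted p = 0.000443) and by 10.9-fold (5.90 to 20; adjusted p = 3.72e-05).

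CXCL6, granulocyte chemotactic protein 2, binds both receptors and changed least among the ligands called. Its probe (A_01_P1755036) read -2.95, -2.96, -3.00 and -2.70 in the controls, -2.16, -0.46, -1.71 and -1.38 after 6.7 Gy and -0.70, -2.06, -1.55 and -1.71 after 7.4 Gy. All day 4 arrays were above the controls, by 1.67-fold to 5.42-fold of the control mean. The rise was 2.78-fold (interval 1.77 to 4.37; limma, adjusted p = 0.00729) and 2.64-fold (1.68 to 4.14; adjusted p = 0.00428). The call after 6.7 Gy was lost with only the groups compared (limma, adjusted p = 0.0510) and with the methods' t-test (0.0943), and after 7.4 Gy with array position as a block (0.0785) and with position and scan day (0.181).

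CXCL5, a further CXCR2 ligand that epithelium can make, was above background on a single array of 24. Probe 1 (A_01_P020088) read -2.0 and probe 2 (A_01_P1755021) -3.86 in replicate 1 of 7.4 Gy on day 4, intensities of 231 and 63.5, where the brightest control spots read 5.49 and 4.41. Both probes were not well above background in every other sample, and probe 1 lay between -7.42 and -6.65 in the controls. Both failed the filter, so no change was tested for CXCL5. The sample with the CXCL5 signal was also the highest of all for CXCL1, CXCL2 and CXCL3.

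Transcripts of CXCL1, CXCL2 and CXCL3 are close in sequence, as are those of CXCL5 and CXCL6. The probe sequences were not used here, so how far a probe also takes signal from a near relative is not known, and the values of these genes are uncertain to that extent.

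**Figure D3:**
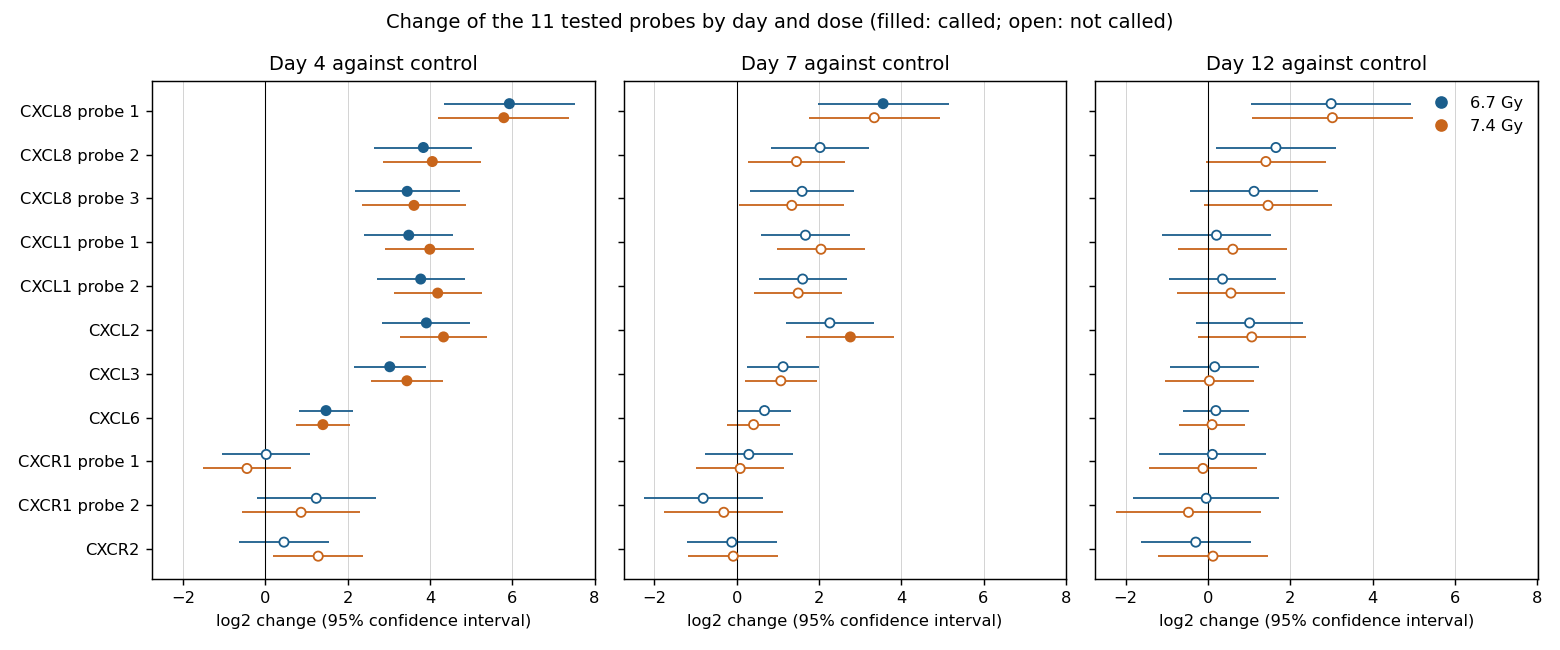
log2 change against control with its 95% confidence interval (x axis) for the 11 tested probes (y axis) on days 4, 7 and 12, at 6.7 and 7.4 Gy. Filled points were called. 8 probes were called at each dose on day 4, 1 at each dose on day 7 (CXCL8 probe 1 after 6.7 Gy and CXCL2 after 7.4 Gy) and 0 on day 12, and all 6 groups share the same 4 controls.

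All comparisons with control share the same 4 control samples, so the doses and days are not independent of each other. The controls all sat at array position 1, where only 6.7 Gy on day 4 had arrays as well. All 7.4 Gy samples of day 4 sat at position 2 and the later samples at positions 3 and 4. For days 7 and 12 against control, irradiation and array position can therefore not be told apart. For 7.4 Gy on day 4 they are linked only through the 6.7 Gy arrays of both positions. The doses themselves were compared without the controls. On day 4 the difference of 7.4 Gy from 6.7 Gy was -0.14 on the log2 scale for CXCL8 probe 1 (95% interval -1.73 to 1.46), 0.51 for CXCL1 probe 1 (-0.57 to 1.59), 0.42 for CXCL2 (-0.65 to 1.49), 0.42 for CXCL3 (-0.46 to 1.30) and -0.08 for CXCL6 (-0.73 to 0.58). 0 of the 11 probes were called by limma, as against 0% among all probes. 0 had an unadjusted p under 0.05 with a 2-fold change, as against 1.15% of all probes. The intervals of the GRO chemokines still admit a 2-fold higher level after the higher dose. The sign for CXCL8 depended on which arrays were set side by side: within the second scan day (4 against 2 arrays) probe 1 differed by -1.15, and within array position 2 (4 against 2 arrays) by 0.88. On day 7, 0 probes differed between the doses by either criterion, where 0% of all probes were called and 0.45% met the unadjusted criterion.

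Of the receptors, neither was called on day 4 at either dose. CXCR1 probe 1 (A_01_P1670566), above background on all 24 arrays, read -2.73, -4.44, -3.43 and -2.51 in the controls. On day 4 it read -2.89, -3.47, -3.10 and -3.55 after 6.7 Gy and -3.70, -3.12, -3.02 and -5.06 after 7.4 Gy. The groups overlapped, and the log2 change was 0.02 (95% interval -1.05 to 1.09; limma, adjusted p = 0.986) and -0.45 (-1.51 to 0.62; adjusted p = 0.577). These intervals leave room for a 2-fold change in either direction after 6.7 Gy. The means of the 7 groups for this probe spanned only -3.72 to -2.98.

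CXCR1 probe 2 (A_01_P012569) was above background on 4 arrays, all from day 4: replicates 2 and 4 of 6.7 Gy (-3.76 and -4.12) and replicates 1 and 3 of 7.4 Gy (-4.84 and -4.24). Its day 4 changes were not called (limma, adjusted p = 0.271 and 0.404). Over the 24 arrays its correlation with probe 1 was 0.0000399, so the CXCR1 probes did not follow each other, and which of them reads CXCR1 was not tested.

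CXCR2 (A_01_P1678031), the receptor shared by all of these ligands, was dim. In the controls it read -7.39, -5.05, -5.89 and -7.86, with only replicate 2 above background, and after 6.7 Gy on day 4 it read -6.80, -5.49, -5.49 and -6.60. After 7.4 Gy it read -4.70, -5.45, -4.96 and -5.95, with 3 of 4 arrays above background and all 4 above the control mean, although control replicate 2 lay among them. The log2 change after 7.4 Gy was 1.28 ± 0.52 (SE) (95% interval 0.19 to 2.38; limma, adjusted p = 0.0888), against 0.45 ± 0.52 after 6.7 Gy (-0.64 to 1.54; adjusted p = 0.632). The call depended on control replicate 2, without which the change after 7.4 Gy was 1.78 (adjusted p = 0.0189), and with normexp correction the change was 0.04. The difference between the doses was 0.83 (-0.26 to 1.92; adjusted p = 0.885).

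**Figure D4:**
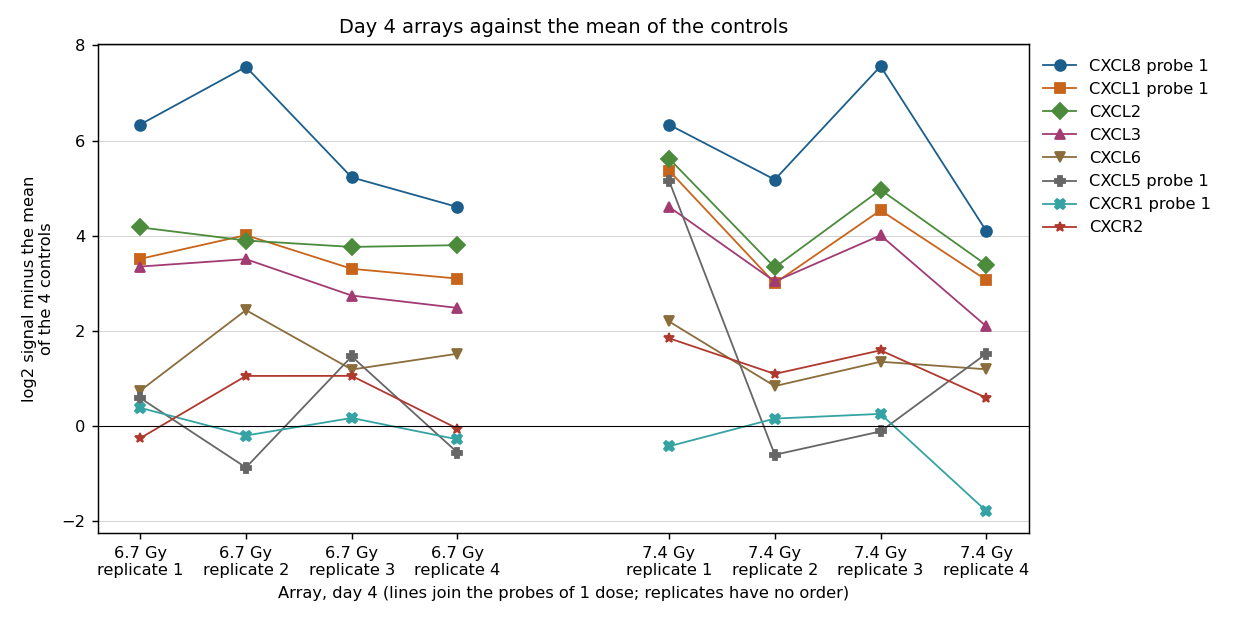
Difference of each of the 8 day 4 arrays from the mean of the 4 controls (y axis, log2) for 1 probe of each gene, with lines joining the arrays of a dose. Replicates have no order. After 7.4 Gy the lines of CXCL1, CXCL2 and CXCL3 run together, high in replicates 1 and 3, and CXCL5 departs from the controls in replicate 1.

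Across the 8 day 4 samples the GRO chemokines varied together, with the same samples high or low. By the brightest probe of each gene, no pair with CXCL8 or CXCL6 passed adjustment. The other CXCL8 probes were not tested against these genes. Probe 2 had r = 0.886 with CXCL3, 0.754 with CXCL1 probe 1 and 0.656 with CXCL2, so a separation of CXCL8 from them was not shown. Between CXCL1 and CXCL2 Pearson's r was 0.953 (exact permutation p = 0.00126, adjusted p = 0.00527) and Spearman's rho 0.952 (adjusted p = 0.00713), and between CXCL1 and CXCL3 r was 0.927 (exact permutation p = 0.000645, adjusted p = 0.00335) and rho 0.857 (adjusted p = 0.0446). CXCL2 and CXCL3 had r = 0.892 (exact permutation p = 0.00241, adjusted p = 0.00859) and rho = 0.810 (adjusted p = 0.0680). The 10 pairs among the 5 ligands called had r from 0.449 to 0.953, of which 3 passed adjustment over the 25 relations computed on these arrays. CXCL8 went with CXCL3 (r = 0.790, rho = 0.833) without passing (adjusted p = 0.0643 and 0.0549, exact permutation). These relations among the GRO chemokines rested on the samples at the edge: without the 2 samples farthest from the median of the first gene, r fell to 0.656 for CXCL1 with CXCL2 (exact permutation p = 0.157), 0.746 for CXCL1 with CXCL3 (p = 0.0847, exact) and 0.573 for CXCL2 with CXCL3 (p = 0.247, exact), while CXCL8 with CXCL3 had r = 0.880 (p = 0.0111, exact). Within the 6 arrays of the second scan day, r was 0.961, 0.914, 0.907 and 0.732 for these 4 pairs, and the first scan day held only 2 day 4 arrays. How far near-identical sequences give shared signal was not tested.

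On day 7 the means of CXCL8, CXCL1, CXCL2, CXCL3 and CXCL6 stood between the day 4 and the control means, and CXCL5 was at background. CXCL8 probe 1 read -3.17, -1.15, -2.50 and -3.00 after 6.7 Gy and -1.83, -2.75, -3.61 and -2.48 after 7.4 Gy, all above the highest control. CXCL2 read -2.15, -1.72, -2.99 and -2.50 after 6.7 Gy and -1.13, -2.19, -3.13 and -0.92 after 7.4 Gy, again all above the controls. At each dose 7 of the 11 probes did not overlap with the controls, where 3.39% of all probes lay wholly above them after 6.7 Gy and 3.03% after 7.4 Gy.

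Few of these day 7 differences were called. After 6.7 Gy only CXCL8 probe 1 was called, at 11.8-fold (limma, adjusted p = 0.0487), with 0.322% of all probes called (0.0994% higher). After 7.4 Gy only CXCL2 was called, at 6.79-fold (adjusted p = 0.0196), with 0.390% of all probes called (0.131% higher). CXCL8 probe 1 after 7.4 Gy (10.2-fold, adjusted p = 0.0533) and CXCL2 after 6.7 Gy (4.81-fold, adjusted p = 0.0580) lay just outside the threshold, and CXCL1, CXCL3 and CXCL6 gave log2 changes from 0.41 to 2.05 that were not called. Only 1 of 4 control spots of CXCL8 probe 1 was above background, and the other CXCL8 probes gave smaller rises that were not called. Probe 2 gave 4.07-fold after 6.7 Gy and 2.74-fold after 7.4 Gy (limma, adjusted p = 0.146 and 0.320). Probe 3 gave 3.01-fold and 2.53-fold (adjusted p = 0.373 and 0.425). 7 of 11 probes at each dose had an unadjusted p under 0.05 with a 2-fold change, as against 2.31% and 2.67% of all probes in either direction. The CXCL8 call after 6.7 Gy was lost without control replicate 2 (adjusted p = 0.123) or 4 (0.149) and without any 1 of the 4 irradiated replicates (0.104 to 0.137), and the CXCL2 call after 7.4 Gy without control replicate 3 (0.0563) or irradiated replicate 1 (0.0604) or 4 (0.0980). Both calls were lost with slide as a block (adjusted p = 0.0539 for CXCL8 and 0.0957 for CXCL2). Arrays of different groups shared slides, and deviations from the group means correlated at a median of 0.125 between arrays of 1 slide and -0.02 between slides. Without replicate 3 of 7.4 Gy, CXCL8 probe 1 (adjusted p = 0.0390) and CXCL1 probe 1 (0.0271) were called as well.

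No receptor probe was called on day 7 by limma, and only CXCR1 probe 1 was bright enough to compare. It changed by 0.29 and 0.09 on the log2 scale. CXCR1 probe 2 gave -0.81 and -0.31, but was above background on 0 of 4 arrays at each dose and on 0 of 4 controls. CXCR2 was not above background on any of the 8 arrays, and on 1 of 4 controls.

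On day 12, with 2 samples a dose, 0 members were called against the controls by limma. CXCL8 probe 1 read -2.27 and -3.77 after 6.7 Gy and -2.75 and -3.23 after 7.4 Gy, all above background and above the highest control at -4.76, where 12.3% of all probes lay wholly above the controls after 6.7 Gy and 7.17% after 7.4 Gy. The log2 change was 2.99 ± 0.93 (SE) and 3.02 ± 0.93, with 1 of 4 control spots above background, without passing adjustment (limma, adjusted p = 0.461 and 0.399). Probe 2 gave 1.65 and 1.41 (adjusted p = 0.649 and 0.744), and probe 3 gave 1.12 and 1.46. CXCL3 (0.16 and 0.03), CXCL6 (0.19 and 0.10) and CXCL1 probe 1 (0.21 and 0.60) were within 1 log2 unit of the controls, and CXCL2 gave log2 changes of 1.0 and 1.1. 0 of 11 probes were called at either dose by limma, with 0.0183% and 0.0262% of all probes called, and 2 probes after 6.7 Gy and 1 after 7.4 Gy had an unadjusted p under 0.05 with a 2-fold change, against 1.88% and 1.95% of all probes in either direction.

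The fall from day 4 was tested between irradiated samples, both doses together and without the controls. The day 4 samples sat at array positions 1 and 2 and the later samples at positions 3 and 4. Day and array position can therefore not be told apart in this comparison. Day 7 was called lower than day 4 for 8 of 11 probes. Of these, CXCR1 probe 2 had passed the filter on dim signal only through day 4 arrays, which favours a lower level on day 7. Among all probes, 2.06% were called lower and 4.44% in either direction. CXCL8 probe 1 was 5.32-fold lower, CXCL1 probe 1 3.68-fold, CXCL2 3.05-fold and CXCL3 4.38-fold lower (limma, adjusted p = 0.0031 for CXCL8). The day 4 and day 7 samples did not overlap for the CXCL1 probes and CXCL3, and overlapped for CXCL8 and CXCL2, while 1.41% of all probes lay wholly lower on day 7. CXCL6 was 1.86-fold lower (adjusted p = 0.0062), under the 2-fold limit. CXCR1 probe 2 was above background on 0 of 8 arrays on day 7, at least 1.17-fold lower there (limma, adjusted p = 0.0201), and is given as a description.

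By day 12 all 8 probes of CXCL8, CXCL1, CXCL2, CXCL3 and CXCL6 were lower than on day 4, and none of their day 12 arrays overlapped with day 4. CXCL1 probe 1 was 10.1-fold lower, CXCL3 8.77-fold, CXCL2 8.47-fold, CXCL8 probe 1 7.23-fold and CXCL6 2.45-fold (limma, adjusted p = 0.0021 for CXCL6). Among all probes, 2.68% were called lower and 6.51% in either direction, and 5.75% lay wholly below day 4.

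Placed in order of their means, the groups ran from day 4 through day 7 and day 12 to control for all 5 ligands called on day 4, judged by the first probe of each gene. The other CXCL8 probes broke this order. Probe 2 had 6.7 Gy on day 12 (-3.60) above 7.4 Gy on day 7 (-3.80), by less than the SD of either group. Probe 3 had 7.4 Gy on day 12 (-3.61) above 7.4 Gy on day 7 (-3.73). That difference of 0.12 was under the day 7 SD (0.41) but over the SD of the 2 day 12 samples (0.036). Most neighbours in that order were not called different by limma, and for CXCL8 probe 1 no neighbouring pair of groups was called, although the order spans -0.08 (6.7 Gy, day 4) to -6.01 (control). The neighbours that were called were 6.7 Gy on day 4 and on day 7 for CXCL3 (1.89 on the log2 scale, adjusted p = 0.0192) and for CXCL1 probe 2 (2.17, adjusted p = 0.0248).

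The slides were scanned on 2 days, 8 arrays on the first and 16 on the second. Groups were spread over both except 7.4 Gy on day 4 and both doses on day 12, all scanned on the second. Within the scan days the day 4 rise after 6.7 Gy held its direction, at 4.61 (2 against 2 arrays, first day) and 7.26 (2 against 2, second day) on the log2 scale for CXCL8 probe 1. Over the same arrays it was 3.19 and 3.78 for CXCL1 probe 1, 3.82 and 4.00 for CXCL2, 2.68 and 3.36 for CXCL3 and 1.41 and 1.54 for CXCL6. After 7.4 Gy, within the second scan day (4 against 2 arrays), the same probes gave 6.11, 4.01, 4.29, 3.37 and 1.34.

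Of the cytokines known to induce these chemokines, 1 of 9 tested was called higher after 6.7 Gy (median log2 change 0.61) and 5 of 9 after 7.4 Gy (median 1.2), where 2.26% and 4.11% of all named genes were called higher and the median over all genes was -0.04 and -0.03. IL1A, interleukin 1 alpha, lay between -6.12 and -4.54 in the controls, with 1 of 4 above background, between -2.09 and -0.97 after 6.7 Gy and between -2.02 and 1.45 after 7.4 Gy. It rose at both doses without overlap, by 3.76 and 5.08 on the log2 scale (limma, adjusted p = 0.00517 and 0.000191). IL1B rose after 7.4 Gy (2.25, adjusted p = 0.0224) and was 1.58 after 6.7 Gy (adjusted p = 0.136), and TNF, called after 7.4 Gy, gave 1.2 (adjusted p = 0.0339) and 0.61 after 6.7 Gy (adjusted p = 0.335). IL17F, an interleukin 17 of mucosal lymphocytes, rose after 7.4 Gy (1.38, adjusted p = 0.0342). OSM, oncostatin M, was above background on 5 of 24 arrays, 0 of them controls, and on 3 of 4 after 7.4 Gy. It passed the filter on dim signal only through irradiated arrays. Its call after 7.4 Gy (limma, adjusted p = 0.0133), among the 5 counted there, is therefore given as a description.

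Of 13 NF-kB factors and feedback inhibitors, 3 rose at each dose (median 0.52 after 6.7 Gy and 0.44 after 7.4 Gy), where 2.26% and 4.11% of all named genes were called higher. TNIP3 and TNFAIP3 rose at both doses, and both are feedback inhibitors that NF-kB itself induces. TNIP3 changed by 3.80 and 4.42 (limma, adjusted p = 0.000301 and 1.9e-05) and TNFAIP3 by 1.19 and 1.30 (adjusted p = 0.000648 and 4.3e-05). IRAK3, an inhibitor of interleukin 1 receptor signalling, passed the 2-fold limit only after 7.4 Gy (1.12, adjusted p = 0.00141) and gave 0.83 after 6.7 Gy, and RELB, an NF-kB subunit, passed it only after 6.7 Gy (1.28, adjusted p = 0.0122, against 0.96 after 7.4 Gy). TNIP3 was the one gene of the lists called higher on day 7, at both doses (3.12 and 2.88), where the other inducers and factors had 0 calls by limma.

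Of 6 endothelial adhesion genes, which hold leukocytes to the vessel wall, only VCAM1 was called, at both doses (1.40 and 1.34, limma, adjusted p = 0.00221 and 0.000974). The list medians were 0.45 and 0.63, and 4 of 6 and 5 of 6 genes had an unadjusted p under 0.05. Among all named genes, 2.26% and 4.11% were called higher and 1.81% and 3.93% lower, for comparison with this list and those below. The share of all genes at an unadjusted p under 0.05 alone is not given, so such counts in these lists have no array-wide reference. Of 4 granulopoietic factors 0 were called higher by limma at either dose. The 1 gene of them at an unadjusted p under 0.05 was CSF1, the macrophage growth factor, which fell after 7.4 Gy (-1.15, adjusted p = 9.5e-05) and gave -0.84 after 6.7 Gy (adjusted p = 0.00337; list medians -0.13 and -0.09).

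Among 4 further CXCR2 ligands and scavenging receptors, 0 were called at either dose by limma, with 3 at an unadjusted p under 0.05 at each dose (medians 0.80 and 0.86). PPBP, a platelet ligand of CXCR2, was at background in all controls and gave 0.20 and 0.90 (adjusted p = 0.876 and 0.330). MIF, a cytokine that also binds CXCR2, gave 0.80 and 0.76 (adjusted p = 0.0310 and 0.0239), and ACKR1, the endothelial and red cell receptor that binds these chemokines without signalling, gave 0.80 and 0.89 (adjusted p = 0.0646 and 0.0257), all under the 2-fold limit. Of 9 other neutrophil attractants and their receptors, 0 were called after 6.7 Gy (4 at an unadjusted p under 0.05), and after 7.4 Gy ANXA1, which restrains neutrophil entry, rose (1.89, adjusted p = 0.000427) and ALOX5, the enzyme that starts leukotriene synthesis, fell (-1.12, adjusted p = 0.0357), with list medians of 0.33 and 0.04.

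**Figure D5:**
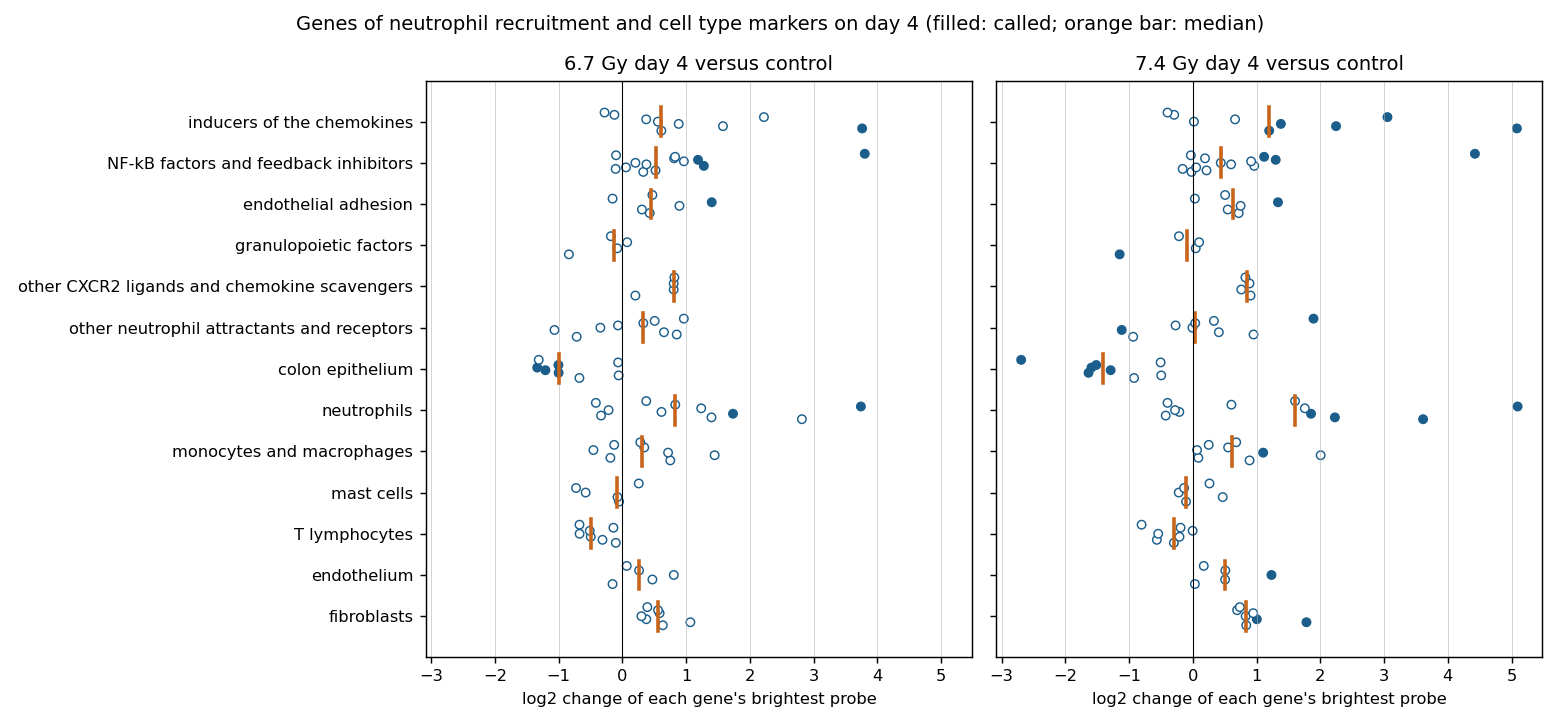
log2 change on day 4 against control (x axis) of each gene of the recruitment and cell type lists (y axis), after 6.7 Gy (left) and 7.4 Gy (right). Points are genes by their brightest probe, filled where called, and the orange bar is the list median. Inducers and neutrophil markers lie mostly to the right of 0 (medians 1.2 and 1.6 after 7.4 Gy) and colon epithelium to the left (-1.40).

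Markers of several cell types also differed from the controls in their group means on day 4. Of 11 neutrophil markers tested, 2 were called higher after 6.7 Gy and 4 after 7.4 Gy (medians 0.83 and 1.6), where 2.26% and 4.11% of all named genes were called higher. VNN2 rose by 3.74 and 5.09 (limma, adjusted p = 0.00518 and 0.000181) and led the summed level of the list, FCGR3 rose by 1.73 and 1.85 (adjusted p = 0.00526 and 0.00121), and S100A8 and S100A9 rose after 7.4 Gy (3.61 and 2.23, adjusted p = 0.0311 and 0.0198). CSF3R, the granulocyte colony-stimulating factor receptor of neutrophils, gave -0.33 and -0.43 and was not called, MMP8 gave 0.61 and -0.21, and MPO was too dim to test. The granule genes ELANE, AZU1, PRTN3 and LTF were not matched on the array. The summed level of the list, relative to the 75th percentile, ran from 2.38 to 3.27 in the controls, 9.01 to 23.2 after 6.7 Gy and 9.30 to 42.6 after 7.4 Gy on day 4, 2.33 to 11.4 on day 7 and 2.25 to 3.49 on day 12, with 7 to 10 of the 11 genes above background.

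Of 8 epithelial markers, all above background on every array as fits a colon label, 4 fell after 6.7 Gy and 5 after 7.4 Gy (medians -1.0 and -1.4, with 1.81% and 3.93% of all named genes called lower). VIL1 changed by -1.0 and -1.64 (limma, adjusted p = 0.00566 and 4.2e-05), KRT20 by -1.34 and -1.59 (adjusted p = 0.00137 and 9.7e-05), and CDX2 and LGALS4 were called at both doses as well. CA2, called only after 7.4 Gy, changed by -1.31 and -2.69 (adjusted p = 0.0980 and 0.00107). Their summed level was 629 to 783 in the controls, 279 to 418 and 179 to 352 on day 4, and 579 to 745 on day 7. The part of these cell type shifts in the chemokine values was not tested. Across the 8 day 4 samples the summed neutrophil level correlated with the 5 ligands at r from 0.141 to 0.649 and the summed epithelial level at r from -0.748 to -0.474, and 0 of these 10 relations passed adjustment (exact permutation).

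Markers of other cell types were also examined on day 4. Macrophage markers had 0 of 8 called after 6.7 Gy (0 at an unadjusted p under 0.05) and LYZ called after 7.4 Gy (1.1, limma, adjusted p = 0.0446; medians 0.31 and 0.62), when 4 of 8 had an unadjusted p under 0.05, and mast cell (medians -0.08 and -0.11) and T lymphocyte markers (-0.50 and -0.30) had 0 called at either dose, with at most 1 gene of a list at an unadjusted p under 0.05. Of the endothelial markers VWF rose after 7.4 Gy (1.23, adjusted p = 0.000576; medians 0.26 and 0.51), and of the fibroblast markers COL1A2 (1.78, adjusted p = 0.00451) and COL3A1 (1.0, adjusted p = 0.0245) rose after 7.4 Gy (medians 0.56 and 0.84). This was 2 of 7 fibroblast markers, with all 7 at an unadjusted p under 0.05 after 7.4 Gy and 3 after 6.7 Gy, and the part of these shifts in the chemokine values was not tested.

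The 5 other named genes whose level followed CXCL8 probe 1 most closely over the 24 arrays were PAPPA, a protease of insulin-like growth factor binding proteins (r = 0.927), the kinase PLK2 (0.903), the monocyte attractant CCL2 (0.902), complement factor B CFB (0.897) and ENC1 (0.896). The 24 points share the day 4 to control contrast, so these values are a description. Within the 8 day 4 samples alone r was 0.886, 0.949, 0.821, 0.748 and 0.729. All 5 genes were above background on every array, and their day 4 log2 changes ran from 1.93 to 2.75 after 6.7 Gy and from 2.32 to 3.02 after 7.4 Gy.

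In the RefSeq annotation of the rhesus assembly T2T-MMU8v2.0, CXCL3, PPBP, CXCL1, CXCL6 and CXCL8 follow each other on one chromosome with at most 3 genes between neighbours, and CXCR2 and CXCR1 are adjacent on another. CXCL2 and CXCL5 were not matched in that annotation. Within this row of genes CXCL3, CXCL1, CXCL6 and CXCL8 were called on day 4 and PPBP was not.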

How the data were processed

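Agilent 1-colour rhesus arrays (Cy3) were read by the authors with Feature Extraction 11.0.1.1. The deposited scanner files hold intensity per spot after background subtraction, and the authors' normalized table, deposited as log2 values scaled to the 75th percentile and centred on each probe's median over the arrays, served as an alternative. The intensity table deposited for the series equals the scanner values (largest log2 difference 1.77e-06). Here log2 processed signal minus each array's 75th percentile over transcript spots was used, outlier spots (24 to 712 of 43803 transcript spots an array) were left out, spots of 1 probe were averaged, and 1 mean per group was fitted with limma 3.58.1 (R 4.3.3) over all 24 arrays, for 10 contrasts, after the filter of at least 2 arrays well above background. Tests were two-sided with Benjamini-Hochberg adjustment. At least 1.17-fold and similar bounds set the brighter group's mean against the lowest signal well above background. All probes of the members are named, with the 5 genes most correlated with CXCL8 and up to 3 genes a list (those called with the largest change after 7.4 Gy on day 4, otherwise the brightest), plus genes singled out afterwards (TNF, IL17F, RELB, CDX2, LGALS4, CSF3R, MMP8, MPO, PPBP, MIF, ACKR1). A gene in a list was taken by its brightest probe. The members and lists were chosen with earlier results of these data known. The fit was tested on simulated data. Correlations on day 4 (exact permutation) and 2 alternatives (spike-in scaling, position with scan day) were chosen after seeing the data. Probe sequences were not used here. The list of leukocyte adhesion genes is not reported here.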

Additional observations from a re-analysis of the deposited data

Results flagged for a closer look

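In the control group CXCL6 stood apart in replicate 4, at -2.70 on the log2 scale where the nearest of the other controls was at -2.95 and the farthest at -3.00. This was 1 of the 55 probe-by-group sets of 4 arrays examined, and chance flags about 1 in 20 groups. The sample lay on the side of the irradiated arrays and below all of the day 4 arrays.

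The level in the irradiated samples differed between the days, by limma's test of the difference between irradiated samples, in which the shared controls cancel. The only controls were labelled day 4, and day 4 shared no array position with the later days. A change in the effect of irradiation can therefore not be told apart from one of baseline or position. From day 4 to day 7 the log2 difference was -2.41, -2.21 and -2.07 for CXCL8 probes 1, 2 and 3, -1.88 and -2.43 for the CXCL1 probes, -1.61 for CXCL2 and -2.13 for CXCL3. CXCR1 probe 2, above background on 0 of 8 day 7 arrays and tested only through its day 4 signal, was at least 1.17-fold lower. From day 4 to day 12 it was -2.85, -2.42 and -2.24 for the CXCL8 probes, -3.33 and -3.53 for the CXCL1 probes, -3.08 for CXCL2, -3.13 for CXCL3 and -1.29 for CXCL6.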

How the results depend on the processing

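The 34 probe results called in some contrast were recomputed under alternatives, giving 807 values, of which 777 kept the call, 30 lost it and 0 changed sign. The number of member probes called on day 4, in both later days against day 4, on day 12 and between doses stayed within 1.5 times the values reported. The day 7 counts did not. After 6.7 Gy the count of 1 became 0 with normexp correction, quantile normalization, no filter on dim probes, slide or scan day as a block, spike-in scaling (chosen after seeing the data), only the groups compared, and the methods' t-test, and 2 where a probe had to be well above background on every array of 1 group. After 7.4 Gy it became 0 with normexp, slide as a block, only the groups compared and the methods' t-test, and 2 with median scaling, with that stricter filter and with the replicate block. The cause was not tested.

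Replicate numbers did not pair the samples (median correlation of same-numbered deviations 0.0019 over 62 pairs, with 8 of 24 arrays closest to their own number), and the block moved no other count by over 1.5 times. Leaving out 1 array at a time gave counts of 8 to 8 for 6.7 Gy and 8 to 9 for 7.4 Gy on day 4, 0 to 1 and 0 to 3 on day 7, 0 on day 12 and between doses, 8 to 10 for day 7 and 8 to 9 for day 12 against day 4. CXCR2 entered without control replicate 2 on day 4. On day 4 calls were lost for CXCL8 probe 3 after 6.7 Gy (methods' t-test, 0.0606), CXCL6 after 6.7 Gy (only the groups compared, 0.0510; methods' t-test, 0.0943), CXCL2 after 7.4 Gy (position with scan day, 0.0511) and CXCL6 after 7.4 Gy (position, 0.0785; position with scan day, 0.181). CXCR1 probe 2 on day 7 against day 4 was lost with normexp (0.285) and slide as a block (0.0546), and CXCL6 on day 12 against day 4 fell under 2-fold with normexp (-0.76). Spike-in scaling moved the median of all probes from -0.07 to 0.17 after 6.7 Gy and from -0.08 to 0.21 after 7.4 Gy on day 4. Position as a block could not be fitted for days 7 and 12 against control or day 4, since those groups share no position. The controls and 7.4 Gy on day 4 share no position either, so their fit with position as a block rested on the 6.7 Gy day 4 arrays. Low signal limits CXCR2, CXCL5 and CXCR1 probe 2, and CXCL8 probe 1 in the controls.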
